A study of Mus musculus with 9 samples.

Results

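The comparison of HighDose with PBS asked which transcripts of mouse brain tissue differed between a stereotaxic injection of a high dose of adeno-associated virus (AAV) and the matching injection of PBS, a buffered salt solution. It takes 6 of the 9 libraries of the series, 3 labelled HighDose and 3 labelled PBS, chosen by those labels alone and without the 3 labelled LowDose, and it covers all 1710 genes of the deposited table. Both groups are WT mice, the tissue is labelled brain ctx, and both were sampled 10 days after the injection at the centre of the infected area. No source used here gives the vector's capsid, promoter and cargo, the amount injected, or the strain, age and sex of the mice. The labels do not say whether the 3 libraries of a group came from separate animals, so errors and p-values here measure the spread between libraries.

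AAV is a small virus with a single-stranded DNA genome that is used to carry genes into cells. Foreign DNA in a cell can be sensed by the enzyme cGAS, which signals through the adaptor STING, or by Toll-like receptor 9 in endosomes, and both routes lead to the production of type I interferon. Interferon bound to its receptor activates transcription factors of the STAT and IRF families, which bind the interferon-stimulated response element (ISRE) in the promoters of interferon-stimulated genes. Microglia, the resident macrophages of the brain, and astrocytes make and answer interferon, and leukocytes can enter the tissue along chemokine gradients.

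Library totals were recovered as 18.3, 20.7 and 21.7 M reads or read pairs for PBS replicates 1 to 3 and 22.9, 20.9 and 23.1 M for HighDose, so that 3 counts correspond to between 0.130 and 0.164 counts per 1000000 of the library total (CPM). Wherever 3 values follow each other below, they are replicates 1 to 3, and a change is a log2 change with its SE. Genes are named mainly by the size of their change in a list, and those added for what they are known to do were chosen after their values were seen. The listed genes held 1.54%, 1.61% and 1.56% of the PBS libraries and 3.90%, 5.21% and 6.04% of the HighDose libraries. The groups differed by 3.48 percentage points and did not overlap (exact two-sided permutation test, p = 0.10, the smallest that 3 against 3 libraries allow). Since 1412 of the listed genes were at least 2-fold higher in HighDose in the authors' values, the direction of this difference follows from how the table was made. The label brain ctx names the cortex, but defining markers of cortical excitatory neurons and cortical interneurons were not analysed here. The 8 markers of striatal medium spiny neurons had a summed level of 962, 1172 and 783 CPM in PBS and 311, 293 and 272 CPM in HighDose. The PBS tissue therefore held RNA of the striatum, the region below the cortex, and how much of it each piece contained was not measured. In bulk tissue, fewer cells of a type and less RNA per cell cannot be told apart, and the same holds for more cells and more RNA per cell.

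Of the 1710 listed genes, 1583 had enough counts to be tested. At an adjusted p below 0.05 (edgeR quasi-likelihood test, Benjamini-Hochberg over the tested genes), 1366 were higher in HighDose, which is 86.3% of the tested genes, 169 were lower (10.7%), and 97.0% were called in either direction. Every HighDose library lay above every PBS library for 1359 genes (85.8%) and below for 163 (10.3%), and the libraries overlapped for 61. These shares follow largely from how the table was made: each gene in it differs at least 2-fold in mean FPKM (counts per kilobase of transcript and 1000000 reads) between some pair of the groups, and 1581 differ at least 2-fold between these groups. A list of genes of which nearly all are higher is therefore near the background of the table, and what sets a list apart is its median change beside the median of all tested genes, a log2 change of 1.90 (quartiles 1.10 and 3.44). Counts and medians of a list cover its tested members only, and many lists have further members outside the table.

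The sizes of the increases were spread widely. Of the 1366 genes called higher, 613 had a log2 change under 2, 430 had one from 2 to 4, 204 from 4 to 6, 88 from 6 to 8 and 31 of 8 or more. The decreases were smaller. Of the 169 genes called lower, 11 fell by less than 1 on the log2 scale, 130 by between 1 and 2 and 28 by more. In 65 of the listed genes no count was seen in any PBS library, and 18 of these had enough counts in HighDose to be tested.

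The direction of the smaller increases depends on the scaling. Library totals take the whole library as the reference, while TMM factors, DESeq2 size factors or the sum of the listed counts take the listed genes themselves as unchanged on balance. Under these 3 within-table scalings the tested genes had a median of 0.19, 0.22 and 0.22 in place of 1.90, 600, 605 and 607 genes were called higher, and 464, 455 and 454 were called lower. With TMM, 502 of the 1366 genes called higher turned below 0, all with a log2 change of at most 1.74, 264 stayed above 0 without passing the test, 600 kept their call and all 169 genes called lower stayed lower. A gene or list given below with a change under about 1.7 is therefore higher as a share of the library but not relative to the other listed genes. Of the genes named below, Aldh1a2, C3, Ccl8, Cd209a, Cd80, Cgas, Dcn, Gfap, Gpr84, Hap1 and Ripk3 had larger changes that did not pass with TMM.

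**Figure D1:**
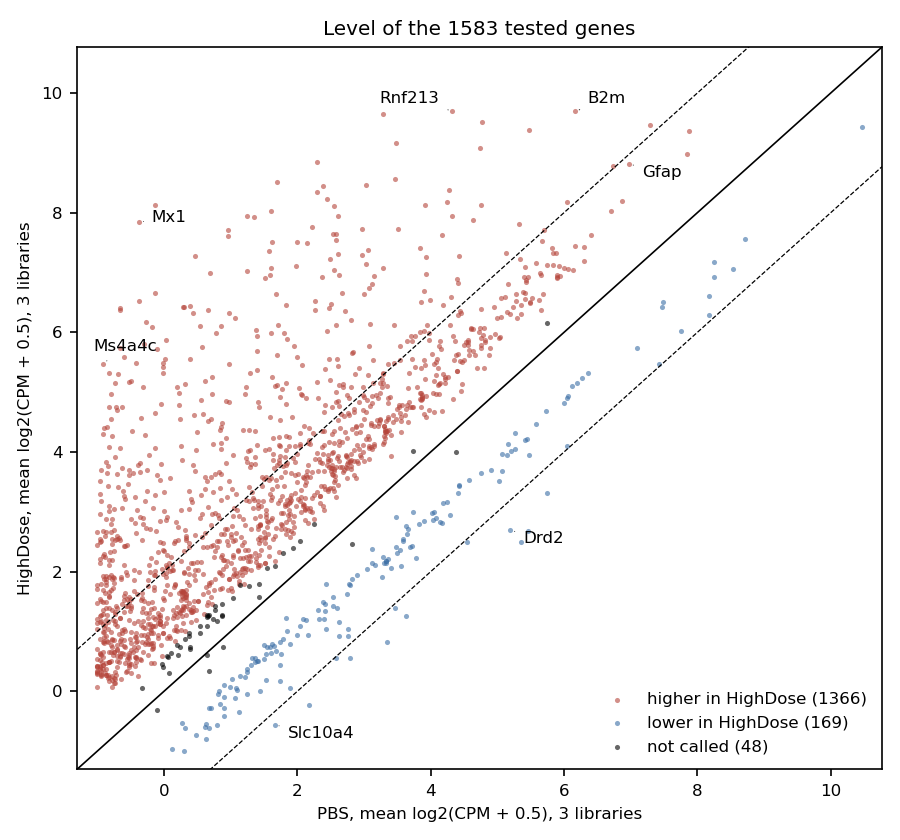
Mean level of each tested gene in PBS (x axis) and HighDose (y axis), both as log2 of CPM plus 0.5, over 3 libraries each. Points above the solid line of equal level are higher in HighDose (1366 called), points below it lower (169 called), and the dashed lines mark 4-fold differences on this scale.

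A small part of the table carried 50% of the added RNA. Summed over the listed genes, HighDose libraries gained on average 38571 CPM over PBS in genes that were higher and fell by 3787 CPM in genes that were lower. The 12 largest gains made up 18.5% of the total gain and 72 genes made up 50% of it. The 12 largest losses made up 65.8% of the loss, and 7 genes made up 50%. Gains counted in reads favour long transcripts, so the level per length is given beside them as FPKM.

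The largest gain was in Rnf213, a giant ubiquitin ligase with antimicrobial activity, which stood at 15.7, 23.2 and 20.4 CPM in PBS and 589, 965 and 1002 CPM in HighDose. Its log2 change was 5.43 ± 0.27 (SE; adjusted p = 4.84e-22), and per length it went from 1.997 to 102 FPKM, the lowest HighDose level per length among the 12 genes, since its transcript is very long. Ifit3, which binds viral RNA, came next with 8.07, 10.9 and 8.81 CPM in PBS and 553, 888 and 1052 CPM in HighDose (6.48 ± 0.29, 5.31 to 476 FPKM). B2m, the light chain of every class I molecule, had 68.5, 82.2 and 64.7 CPM in PBS and 595, 974 and 973 CPM in HighDose, a change of 3.56 ± 0.24, and its mean went from 83.5 to 985 FPKM, the highest level per length among these 12 genes. In each of these 3 genes HighDose replicate 1 was the lowest of its group and still above every PBS library.

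The other large gains were in H2-D1 (3.94 ± 0.25) and H2-K1 (4.401 ± 0.25), class I heavy chains, in Ifit2 (5.81 ± 0.28) and Ifit1 (7.08 ± 0.31), relatives of Ifit3, in Oasl2 (6.74 ± 0.29), and in Irgm1 (5.18 ± 0.26), a GTPase that regulates autophagy of microbes. Apod, a lipid-binding protein made by oligodendrocytes and fibroblasts, stood apart by its start. It was already abundant with 142, 149 and 179 CPM in PBS and 461, 843 and 891 CPM in HighDose, and its change was 2.22 ± 0.24. Ly6e, an inhibitor of virus entry, likewise began high at 210.3, 265 and 228 CPM in PBS and 577, 708 and 690.4 CPM in HighDose, with a change of 1.49 ± 0.22 that turned below 0 under the within-table scalings. The largest losses included Ppp1r1b (-1.49 ± 0.23), which encodes the dopamine-regulated phosphatase inhibitor DARPP-32, Mal (-1.13 ± 0.21), a proteolipid of myelin, Gng7 (-1.87 ± 0.23), a G protein subunit of striatal neurons, Pde1b (-1.07 ± 0.22), which degrades cyclic nucleotides, and Tspan2 (-0.99 ± 0.21), a tetraspanin of oligodendrocytes.

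**Figure D2:**
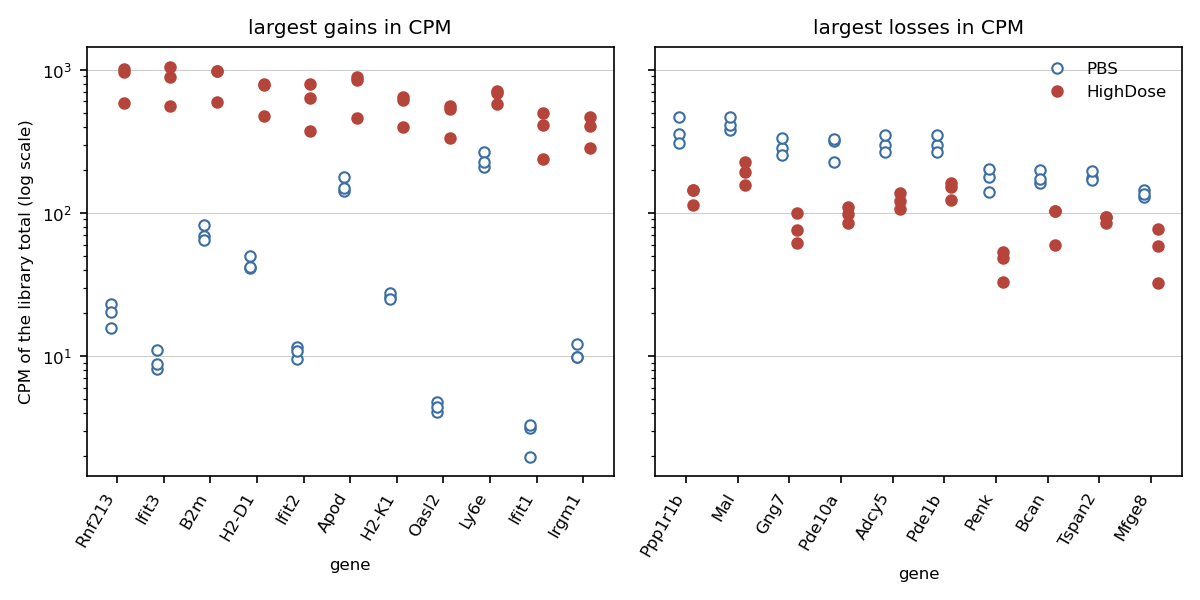
CPM in each library (y axis, log scale) of 11 of the 12 genes with the largest gain in mean CPM (left) and 10 of the 12 with the largest loss (right). Open circles are PBS and filled circles HighDose, 3 libraries each. In all 21 genes shown the 2 groups do not overlap.

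Direct antiviral effectors induced by type I interferon had the highest median change of the lists with at least 20 tested genes. All 38 tested members were higher, with a median log2 change of 6.24 against 1.90 for all tested genes, and 36 were still called higher with TMM. Mx1, a GTPase that traps viral nucleocapsids, rose from 0.382, 0.387 and 0.0922 CPM in PBS to 156, 231 and 332 CPM in HighDose (9.71 ± 0.42, adjusted p = 1.54e-23). Oas3, an enzyme that answers double-stranded RNA, had 0.164, 0.0968 and 0.138 CPM in PBS and 44.1, 55.7 and 59.1 CPM in HighDose (8.59 ± 0.38). Phf11a, a gene of the PHD finger cluster on chromosome 14, had 1 count in all PBS libraries together and 741 in HighDose (ratio 673, 95% counting interval 120.4 to 26607). Rsad2 (7.11), which makes a chain-terminating nucleotide, Bst2 (6.15), which tethers virions to the cell surface, and Ifitm3 (4.21), which blocks fusion in endosomes, lay between. Counts were not whole in at least 1 library for 14 of the 38, among them OAS, IFIT and PHF11 relatives whose reads may have been shared between copies.

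Isg15 and the enzymes that attach and remove it moved with them. Isg15, a ubiquitin-like protein, had 0.927, 2.52 and 1.199 CPM in PBS and 149, 222 and 273 CPM in HighDose (7.102 ± 0.34). Uba7 (4.28), Ube2l6 (4.44) and Herc6 (4.29), which activate, transfer and ligate it, rose by similar amounts, and Usp18, which removes it and also blocks the interferon receptor, by 7.06 ± 0.31. Ubd, another ubiquitin-like modifier, had 2 counts in all PBS libraries together and 225 in HighDose (ratio 102, 95% counting interval 27.9 to 849). All 10 members of this list were higher (median 4.36). So were all 10 PARP enzymes and their partner Dtx3l (median 4.17), led by Parp14 (5.23 ± 0.28), Parp10 (4.87 ± 0.27) and the zinc finger antiviral protein Zc3hav1 (4.48 ± 0.25), and all 15 TRIM ubiquitin ligases (median 3.68). The TRIM list was led by 3 copies of the Trim30 cluster, Trim30c (1 count in all PBS libraries together and 370 in HighDose), Trim30d (5.75 ± 0.31) and Trim30b (5.55 ± 0.52). Counts were not whole for 7 of the 15.

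The IRF and STAT list had a lower median change than the antiviral effector list. All 13 of its tested members were higher, with a median of 2.597 against 6.24. Irf7, which amplifies interferon production, had 3.27, 5.76 and 4.52 CPM in PBS and 235, 356 and 404 CPM in HighDose (6.19 ± 0.29), and Batf2, an interferon-induced partner of IRF1, had 0.218, 0.291 and 0 CPM in PBS and 8.79, 7.75 and 11.2 CPM in HighDose (5.76 ± 0.49). Irf9 (3.86) and Stat2 (3.695), which are parts of the ISRE-binding complex, and Irf1 (4.604) lay above Irf8 (2.597) and Irf5 (2.34), factors of myeloid cells. Of the receptor chains Ifnar2 was analysed, with 14.7, 17.3 and 15.9 CPM in PBS and 27.2, 31.4 and 36 CPM in HighDose (0.98 ± 0.22, below 0 under the within-table scalings). Interferon transcripts themselves were scarce and were not tested. Ifnb1, interferon beta, had 0 counts in each PBS library and 0.831, 0.335 and 1.34 CPM in HighDose, which is at least 17.2-fold higher against a floor of 3 counts over the PBS libraries. Ifng, interferon gamma, had 1 count in all PBS libraries together and 44 in HighDose (ratio 39.9, 95% counting interval 6.81 to 1613), and Ifna2, a form of interferon alpha, was at 0 in PBS with 0.175, 0.574 and 0.737 CPM in HighDose.

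Promoters of the listed genes were searched for the core of the ISRE, spelled GAAA, 2 bases of any kind and GAAA on either strand, in a window of 250 bases before to 50 bases after the start (RefSeq, GRCm38.p6, the same assembly as mm10). The sequences below show the 160 bases before the start of 6 genes with a match and of Rnf213, which had the largest gain and no match, 5′ to 3′ on the strand of the gene. Capitals mark the matches. They were chosen after the matches were known. Ifit2, Oasl2, H2-K1 and H2-D1, which are also among the 12 genes with the largest gains, had no match before the start either and are not shown.
Isg15: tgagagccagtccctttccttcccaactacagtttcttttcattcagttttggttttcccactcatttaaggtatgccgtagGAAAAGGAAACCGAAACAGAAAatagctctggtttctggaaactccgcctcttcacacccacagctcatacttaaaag
Ifit1: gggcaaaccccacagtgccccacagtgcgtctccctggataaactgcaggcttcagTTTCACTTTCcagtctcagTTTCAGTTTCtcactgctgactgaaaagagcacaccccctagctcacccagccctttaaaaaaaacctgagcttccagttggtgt
Ifit3: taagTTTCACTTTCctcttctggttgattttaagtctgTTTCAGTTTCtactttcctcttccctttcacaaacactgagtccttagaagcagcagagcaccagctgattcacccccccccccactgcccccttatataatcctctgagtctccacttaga
Irgm1: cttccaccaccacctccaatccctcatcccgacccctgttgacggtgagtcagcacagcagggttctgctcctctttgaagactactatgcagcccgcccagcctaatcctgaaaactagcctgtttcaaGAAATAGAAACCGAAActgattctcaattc
Gbp2: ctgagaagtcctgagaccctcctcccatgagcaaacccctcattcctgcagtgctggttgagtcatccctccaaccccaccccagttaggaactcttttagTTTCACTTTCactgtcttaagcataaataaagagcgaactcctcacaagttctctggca
B2m: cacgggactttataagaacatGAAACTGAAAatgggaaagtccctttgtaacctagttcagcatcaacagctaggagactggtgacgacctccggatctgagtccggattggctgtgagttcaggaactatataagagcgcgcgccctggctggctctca
Rnf213: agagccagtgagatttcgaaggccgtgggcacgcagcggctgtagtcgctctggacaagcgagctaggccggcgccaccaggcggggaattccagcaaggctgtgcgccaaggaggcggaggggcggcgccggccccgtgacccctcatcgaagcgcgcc
These lie at chr4:156200819-156200978 (minus strand), chr19:34640729-34640888, chr19:34583369-34583528, chr11:48871421-48871580 (minus strand), chr3:142620503-142620662, chr2:122147527-122147686 and chr11:119389939-119390098. In Isg15 the stretch in capitals holds 3 overlapping matches that begin 78, 72 and 66 bases before the start, on the strand of the gene. Ifit1 has matches that begin 104 and 85 bases before its start and Ifit3 at 156 and 122, both on the opposite strand, so that they read TTTC, 2 bases and TTTC here. Irgm1 has overlapping matches at 30 and 24, Gbp2 has 1 at 59 and B2m has 1 at 139.

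Over all 32851 RefSeq mouse promoters of this length, 3.44% hold the ISRE core. Among promoters of genes called higher the share was 10.8% (146 of 1355 promoters, of 1072 genes that matched by symbol). It was 32.7% for genes with a log2 change of 6 or more, 21.5% from 4 to 6, 9.35% from 2 to 4 and 5.45% under 2, and 1.36% for genes called lower (2 of 147). A second element, the gamma-activated sequence spelled TTC, 3 bases of any kind and GAA, was found in 8.30% of all promoters and in 16.8%, 13.6%, 10.6% and 8.64% of the same 4 classes. The kappaB consensus was found in 8.46% of all promoters, in 14.9%, 16.4%, 12.5% and 10.3% of the 4 classes, and in 15.0% of promoters of genes called lower. CANNTG, a short motif searched for comparison, was in 72.3% of all promoters and in 72.5% of those of genes called higher. Its share also differed by class, with 74.3%, 80.2%, 77.5% and 67.1% of the 4 classes and 68.7% of promoters of genes called lower. These shares are descriptions of letters in a window, with no test, and related genes in clusters share promoter sequence.

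**Figure D3:**
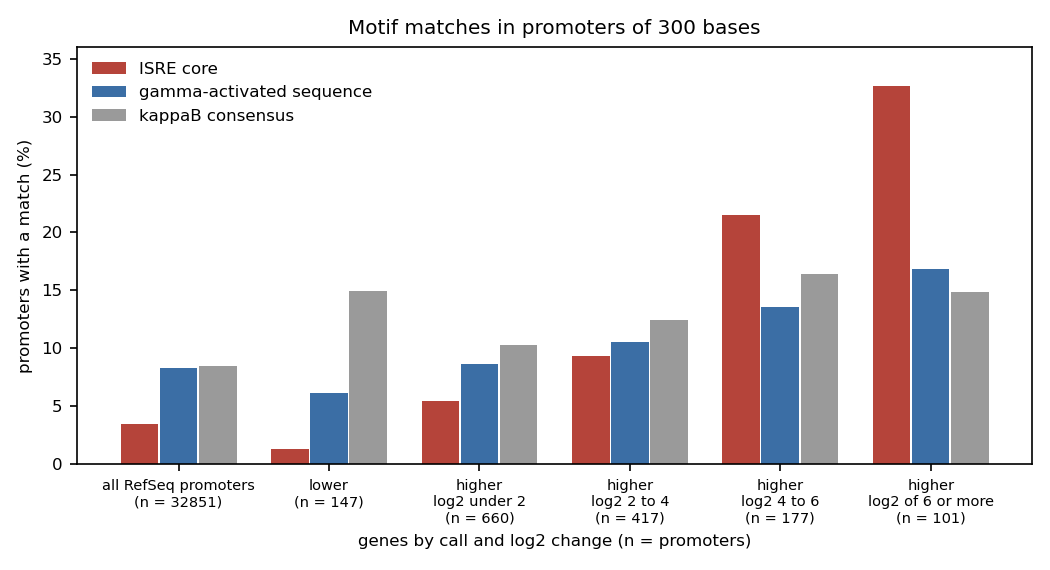
Share of promoters (y axis, percent) that hold the ISRE core, the gamma-activated sequence or the kappaB consensus, for all RefSeq promoters and for the listed genes by direction and size of the log2 change (x axis). The ISRE core goes from 1.36% in genes called lower to 32.7% in genes with a log2 change of 6 or more, against 3.44% in all promoters.

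Sensors of nucleic acids were higher as well. All 18 tested members of the cGAS-STING list were higher (median 7.01, or 6.18 with Ifi214, which was at 0 in PBS, set at its lower bound). Cgas itself had 1.199, 1.36 and 0.968 CPM in PBS and 3.59, 4.54 and 7.24 CPM in HighDose (2.12 ± 0.36, adjusted p = 1.35e-06), and the high median came from the AIM2-like Ifi200 genes of chromosome 1. Among these, Ifi206 had 0.109, 0.0484 and 0.0461 CPM in PBS and 30.7, 34.9 and 57.03 CPM in HighDose (9.15 ± 0.43), while Aim2, the family member that starts an inflammasome, had only 2.18, 1.74 and 1.66 CPM in PBS and 3.37, 4.02 and 5.503 CPM in HighDose (1.21 ± 0.34, below 0 under the within-table scalings). Counts were not whole for 13 of the 18, and reads of similar Ifi200 copies may have been shared. Trex1, the exonuclease that removes cytoplasmic DNA, rose from 3.72, 4.71 and 4.83 CPM in PBS to 27.5, 37.8 and 42.3 CPM in HighDose (3.02 ± 0.25). All 7 RNA-sensing genes were higher (median 5.15), led by Ddx60 (5.91 ± 0.33), Ddx58, which encodes RIG-I (5.499 ± 0.27), and Ifih1, which encodes MDA5 (5.29 ± 0.28).

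Toll-like receptors stood near the median of the table. All 17 tested members of that list were higher, with a median of 2.297 (0.57 with TMM, where 9 were called higher and 3 lower). Tlr8 (4.26 ± 0.63) and Tlr2 (3.998 ± 0.32) changed most, and Tlr9, the endosomal receptor of unmethylated CpG DNA, had 2.13, 2.37 and 1.98 CPM in PBS and 23.2, 27.7 and 34.7 CPM in HighDose (3.72 ± 0.28). Myd88, the adaptor of most of these receptors, rose by 3.105 ± 0.25.

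The inflammasome list, whose proteins activate inflammatory caspases, had a median of 2.85 with all 21 tested members higher. Mefv, which encodes pyrin, had 0 counts in every PBS library and 2.06, 3.397 and 3.55 CPM in HighDose, at least 60.5-fold higher. Il1rn, the antagonist of interleukin 1, rose from 0.0545, 0.194 and 0 CPM in PBS to 28.6, 27.5 and 37.5 CPM in HighDose (8.46 ± 0.42), whereas the agonist Il1b went from 0.369 to 3.65 CPM (3.301 ± 0.47). Casp4 (5.75 ± 0.46), which senses cytoplasmic lipopolysaccharide, changed more than Casp1 (2.94 ± 0.31), the inflammasome's own protease. In the cell death list 17 of 17 were higher (median 2.41). Zbp1, a sensor of left-handed nucleic acids, had 0.218, 0.387 and 0.231 CPM in PBS and 70.1, 93.7 and 114 CPM in HighDose (8.34 ± 0.35), and Mlkl, the pore-forming executioner of necroptosis, had 0.109, 0.0968 and 0.138 CPM in PBS and 8.44, 11.8 and 16.9 CPM in HighDose (6.68 ± 0.46). Ripk3, the kinase between them, stood much lower at 0.164, 0.0484 and 0.415 CPM in PBS and 0.613, 1.196 and 1.47 CPM in HighDose (2.33 ± 0.63).

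Interferon-inducible GTPases, which attack vacuoles that hold pathogens, and Schlafen genes were all called higher. The 11 tested guanylate-binding proteins had a median of 5.95, the 10 immunity-related GTPases 5.92, and the 7 genes of the Schlafen family, a separate group of interferon-induced proteins that restrict translation, 6.16. All 28 kept their call with TMM. Gbp10 (7.5 ± 0.37), Gbp8 (6.999 ± 0.58) and Gbp6 (6.72 ± 0.29) led the first family, but Gbp2, with 4.25, 5.04 and 4.98 CPM in PBS and 274, 341 and 442 CPM in HighDose, held the most reads. Iigp1, the best studied immunity-related GTPase, had 1.96, 1.65 and 2.67 CPM in PBS and 167, 267 and 323 CPM in HighDose (6.904 ± 0.31). Slfn4 rose from 0.109, 0.194 and 0.0922 CPM in PBS to 61.6, 81.4 and 111 CPM in HighDose (9.26 ± 0.42), and Slfn1 had 2 counts in all PBS libraries together and 1426 in HighDose (ratio 647, 95% counting interval 179 to 5350.3). Counts were not whole for 9 of the 11 guanylate-binding proteins, 6 of the 10 immunity-related GTPases and 3 of the 7 Schlafen genes, so values of single copies are uncertain. The GIMAP GTPases of lymphocytes were higher in 8 of 8, with a median of 2.25 and a wide range from Gimap1 (1.12, below 0 under the within-table scalings) to Gimap3, which had 1 count in all PBS libraries together and 509 in HighDose (ratio 462, 95% counting interval 82.6 to 18288). Gimap1 lost its call without PBS replicate 1 (0.91, edgeR adjusted p = 0.0580).

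Many of these families sit side by side in the genome. Among protein-coding genes ordered along the chromosomes (mm10, GENCODE M21), 28 runs of at least 4 neighbouring genes called higher were found, with at most 1 other gene between neighbours, and they held 164 genes. The longest was the Ifi200 cluster at chr1:173350879-174031810, with 12 genes from Aim2 to Ifi205 and a median log2 change of 7.81. The class II region at chr17:34143307-34341412 held 11 genes from H2-DMb2 to H2-Eb2 (median 4.65), a cluster at chr11:48861968-49135387 held 10 from Irgm1 to Ifi47 (median 5.64), and the MS4A cluster at chr19:11249675-11604849 held 10 (median 4.75). Further runs were the TRIM cluster at chr7:104218793-104507849 with 9 genes, the Ifit cluster at chr19:34290666-34650009 with 8 including its neighbours Fas and Ch25h, the GIMAP cluster at chr6:48647234-48770851 with 8, and the Schlafen cluster at chr11:82951349-83215154 with 7. A run at chr11:82035571-82116799 held 5 chemokine genes, Ccl2, Ccl7, Ccl11, Ccl12 and Ccl8 (median 7.77). Since the table holds only genes chosen for a difference, and copies can share reads, no chance level is given.

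All tested genes on the antigen presentation lists were higher. The class I list, whose products show peptides to cytotoxic T cells, was higher in 13 of 13 tested, of 20 on it (median 4.401, and 13 of 13 with TMM). H2-Q7, a non-classical heavy chain, had 0.273, 0.436 and 0.231 CPM in PBS and 39.1, 59.1 and 74.8 CPM in HighDose (7.498 ± 0.35), and Nlrc5, the activator of class I genes, had 0.818, 1.07 and 0.599 CPM in PBS and 63.5, 103 and 97.5 CPM in HighDose (6.73 ± 0.31). The classical chain H2-K1 stood at 25.8, 27.5 and 25.04 CPM in PBS and 400.4, 616 and 639 CPM in HighDose (4.401 ± 0.25), a smaller fold from a far higher start. The peptide supply list was higher in 10 of 10 tested, of 17 on it (median 2.92). It was led by the transporter Tap1 (5.73 ± 0.29) and the immunoproteasome subunits Psmb9 (5.33 ± 0.30) and Psmb8 (5.204 ± 0.27). Counts were not whole for 8 of the 13 class I genes.

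Class II presentation, which addresses CD4 T cells, was higher in 14 of 14 tested, of 17 on that list (median 3.83). H2-Eb1 had 1.799, 1.11 and 0.692 CPM in PBS and 25.2, 43.4 and 48.01 CPM in HighDose (5.03 ± 0.33), H2-Ab1 had 1.58, 1.65 and 1.199 CPM in PBS and 31.1, 51.95 and 52.9 CPM in HighDose (4.94 ± 0.31), and the invariant chain Cd74 had 5.56, 5.08 and 3.55 CPM in PBS and 85.1, 150.4 and 139.7 CPM in HighDose (4.73 ± 0.27). Ciita, the activator of class II genes, was at 0.5496 to 4.39 CPM (2.99 ± 0.42). The costimulatory molecules Cd40 (4.48 ± 0.42), Cd86 (2.55 ± 0.27) and Cd80 (1.76 ± 0.43) are on the same list.

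Chemokines, the secreted signals that direct leukocytes, ranged from abundant to barely detected. All 7 CXC members were higher (median 6.88). Cxcl10, a ligand of CXCR3 on activated T cells, had 0.164, 0.872 and 0.323 CPM in PBS and 217, 242 and 409.7 CPM in HighDose (9.28 ± 0.39, adjusted p = 9.48e-24). Its relative Cxcl9 had 0.327, 0.0968 and 0.184 CPM in PBS and 35.96, 30.7 and 40.6 CPM in HighDose (7.45 ± 0.37), and Cxcl11 had 1 count in all PBS libraries together and 873 in HighDose (ratio 793, 95% counting interval 142 to 31341). All 12 CC members were higher (median 4.92, or 3.93 with Xcl1 at its lower bound, since it was at 0 in PBS). Ccl2, which calls in CCR2 monocytes, had 0, 0.0484 and 0.0461 CPM in PBS and 14.5, 18.03 and 26.7 CPM in HighDose (8.99 ± 0.54), and Ccl5 had 0.218, 0.0968 and 0 CPM in PBS and 23.6, 38.7 and 47.7 CPM in HighDose (8.45 ± 0.43). The receptors were higher in 9 of 9 (median 4.18). The lymph node homing receptor Ccr7 (6.597 ± 0.58), Ccr2 (5.49 ± 0.40) and Cxcr5, which had 2 counts in all PBS libraries together and 103 in HighDose, rose most.

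Interleukins and their receptor chains were higher in 33 of 33 (median 3.04). Il12b, a subunit of interleukins 12 and 23, had 0 counts in PBS and 0.831, 1.34 and 3.86 CPM in HighDose, at least 41.2-fold higher. Il6 had 0.0545, 0.194 and 0.0922 CPM in PBS and 3.85, 3.73 and 10.2 CPM in HighDose (5.62 ± 0.56), and Il2rb, a chain of the interleukin 2 and 15 receptors, had 0.382, 0.436 and 0.415 CPM in PBS and 11.6, 18.8 and 19.5 CPM in HighDose (5.32 ± 0.35). Il18bp, the decoy for interleukin 18, rose from 1.04, 2.42 and 2.398 CPM in PBS to 25.99, 38.7 and 37.6 CPM in HighDose (4.11 ± 0.29), and Osmr, the oncostatin M receptor, by 3.12 ± 0.25. Il10, an inhibitor of macrophages, had 0, 0 and 0 CPM in PBS and 0.306, 0.0478 and 0.563 CPM in HighDose. Il10 and Il27, which had 0, 0 and 0.0922 CPM in PBS and 0.219, 0.765 and 0.563 CPM in HighDose, had too few counts to be tested.

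Of 21 tested TNF ligands and receptors, 20 were higher (median 2.83) and Tnfrsf13b was not called (0.53 ± 0.40, adjusted p = 0.201). The largest were the lymphocyte genes Tnfsf8 (5.67 ± 0.54) and Fasl (5.19 ± 0.82), with Cd27 at 0 in PBS and 0.875, 1.53 and 0.607 CPM in HighDose (at least 19.97-fold), and Eda2r, a target of p53 (5.202 ± 0.40). Tnf itself was at 0.1001 to 2.05 CPM (4.296 ± 0.66). NF-kB subunits and feedback genes were higher in 17 of 17, but their median of 1.81 was at the level of the whole table, and with TMM 7 were called higher and 7 lower. Traf1 (4.87 ± 0.46) and Bcl3 (4.83 ± 0.40) changed most in that list.

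Brakes on immunity were higher in the same libraries. Of 13 tested checkpoint and SOCS genes, 12 were higher (median 3.75). Cd274, which encodes PD-L1, had 2.399, 2.61 and 2.72 CPM in PBS and 137, 181 and 242 CPM in HighDose (6.17 ± 0.28), and its receptor Pdcd1 had 0.327, 0.194 and 0 CPM in PBS and 1.4, 2.87 and 3.86 CPM in HighDose (3.97 ± 0.60). Lgals9, a ligand of TIM-3, rose from 8.01 to 108 CPM (3.75 ± 0.25), Socs1, which inhibits JAK kinases, by 4.22 ± 0.37 and Socs3 by 3.54 ± 0.27. Ido1, which breaks down tryptophan and is also on the list of striatal genes, went the other way with 3.11, 4.504 and 2.31 CPM in PBS and 0.963, 1.48 and 1.26 CPM in HighDose (-1.42 ± 0.40, adjusted p = 0.00107).

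Complement, the opsonin cascade, was higher in 15 of 15 (median 2.67, 0.93 with TMM). Cfb, the protease of the alternative pathway, had 1.04, 1.87 and 2.03 CPM in PBS and 65.3, 78.7 and 82.2 CPM in HighDose (5.497 ± 0.36), C4b had 12.97, 14.7 and 16.1 CPM in PBS and 197, 358 and 304 CPM in HighDose (4.29 ± 0.27), and C3 had 14.01, 21.5 and 11.1 CPM in PBS and 52.8, 93.2 and 65.99 CPM in HighDose (2.19 ± 0.34). The initiating subunits started higher and changed less, for example C1qa with 36.1, 49.8 and 40.3 CPM in PBS and 105, 125 and 132 CPM in HighDose (1.52 ± 0.22, below 0 under the within-table scalings). Fc receptors were higher in 5 of 6 (median 2.53). Fcgr4 had 0.109, 0.533 and 0.277 CPM in PBS and 19.7, 21.96 and 28.9 CPM in HighDose (6.21 ± 0.40), and Fcrls, a gene of resting microglia, fell from 31.7, 37.8 and 30.3 CPM in PBS to 16.4, 8.28 and 13.6 CPM in HighDose (-1.38 ± 0.23).

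Phagocyte oxidase genes were higher in 8 of 8 (median 2.402), led by the catalytic subunit Cybb (4.24 ± 0.29). Cathepsins and lysosomal proteins were higher in 10 of 10 (median 1.804, 0.10 with TMM), led by Cst7 (5.59 ± 0.43), an inhibitor of cathepsins, and Ctsw (5.13 ± 0.67), a protease of cytotoxic lymphocytes. Of 8 acute phase and metal-binding genes 7 were higher (median 1.88). Among them, Lcn2, an iron-withholding protein, had 0.654, 1.501 and 0.323 CPM in PBS and 3.41, 7.61 and 8.102 CPM in HighDose (2.94 ± 0.44), and Ptx3, a soluble pattern receptor, had 0.218, 0.145 and 0.184 CPM in PBS and 1.71, 4.98 and 4.25 CPM in HighDose (4.28 ± 0.55). Serine protease inhibitors were higher in 9 of 10 (median 2.91). Serpina3f had 0 counts in PBS and 4.86, 5.26 and 4.81 CPM in HighDose, at least 100.5-fold higher, Serpina3n had 11.9, 16.9 and 16.05 CPM in PBS and 80.9, 146 and 164 CPM in HighDose (3.12 ± 0.25), and Serpina9, which is also on the striatal list, fell from 6.43, 8.09 and 4.98 CPM in PBS to 0.788, 1.48 and 0.737 CPM in HighDose (-2.698 ± 0.37).

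Transcripts that define T cells were near 0 in PBS and higher in every HighDose library. All 7 T cell markers in the table were higher, with a summed level of 0.763, 0.533 and 1.38 CPM in PBS and 12.6, 24.1 and 28.6 CPM in HighDose. Cd3e, a signalling subunit of the receptor, had 2 counts in all PBS libraries together and 106 in HighDose (ratio 48.1, 95% counting interval 13 to 402), Cd3d was at 0 in PBS with 1.23, 1.96 and 1.56 CPM in HighDose (at least 31.8-fold), and Cd8a had 3 counts in all PBS libraries together and 234 in HighDose (ratio 70.8, 95% counting interval 23.9 to 346). The wider T cell list was higher in 18 of 18 (median 5.22, or 5.02 with 2 genes at their lower bound). Foxp3, the factor of regulatory T cells, had 0.166, 0.0968 and 0.0922 CPM in PBS and 0.358, 1.36 and 1.15 CPM in HighDose and was not tested.

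All 5 markers of natural killer cells were higher, from 0, 0.145 and 0.138 CPM summed in PBS to 4.2, 5.55 and 7.83 CPM in HighDose, and the cytotoxic effector list was higher in 19 of 19 (median 5.89, or 5.19 with 2 genes at their bound). Gzmb, a protease of cytotoxic granules, had 0.109, 0 and 0.0922 CPM in PBS and 22.4, 22.4 and 37.2 CPM in HighDose (8.57 ± 0.45). Prf1, which makes the pore, had 1 count in all PBS libraries together and 167 in HighDose (ratio 152, 95% counting interval 26.8 to 6024), and Klrk1, the activating receptor NKG2D, had 0.109, 0.0968 and 0 CPM in PBS and 5.56, 8.04 and 9.84 CPM in HighDose (6.76 ± 0.55).

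The summed level of the 5 B cell markers was 0.709, 0.9201 and 1.11 CPM in PBS and 3.59, 7.56 and 8.54 CPM in HighDose. Ms4a1, which encodes CD20, had 2 counts in all PBS libraries together and 87 in HighDose (ratio 39.5, 95% counting interval 10.6 to 331), and Cd79b did not pass (1.01 ± 0.53, adjusted p = 0.06796). Without HighDose replicate 1, Cd79b was called higher (1.39, edgeR adjusted p = 0.0124), and it also passed with limma-voom over all libraries (1.06, adjusted p = 0.0140). In the wider list 5 of 6 were higher (median 3.4). Markers of plasma cells and mast cells, and S100a8, S100a9 and Ly6g of neutrophils, were not analysed here. Of 3 tested genes on the neutrophil list of 18 all were higher (median 2.84), but Lcn2 is also made by reactive astrocytes.

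Genes of inflammatory monocytes included the highest log2 change in the table. All 3 monocyte markers rose, from 1.47, 0.6305 and 0.5999 CPM summed in PBS to 109, 159 and 192 CPM in HighDose. Ly6c2 had 0.164, 0.195 and 0.0466 CPM in PBS and 60.3, 95.01 and 105 CPM in HighDose (9.298 ± 0.39), with counts that were not whole in all 9 libraries. Reads of its close relative Ly6c1 may be shared with it. Ms4a4c had 2 counts in all PBS libraries together and 3019 in HighDose (ratio 1370.5, 95% counting interval 379 to 11321), the gene with that highest change. Gpr141, an orphan receptor of myeloid cells, had 0 counts in PBS and 3.54, 6.75 and 8.02 CPM in HighDose, at least 123-fold higher. The wider list was higher in 13 of 13 (median 5.49). Dendritic cell genes were higher in 9 of 9 (median 3.94), although only Clec9a and Cd209a of their defining markers were tested, at 0.0658 to 1.097 CPM and 0.0545 to 0.942 CPM. Border macrophages, which line vessels and meninges, were mixed. Siglec1, an interferon-inducible sialic acid receptor, rose by 5.86 ± 0.33 and Hmox1, which degrades heme, by 4.93 ± 0.28. Cd163, the only 1 of 5 defining markers that was analysed, fell from 1.31, 1.501 and 1.29 CPM in PBS to 0.613, 0.478 and 0.26 CPM in HighDose (-1.59 ± 0.49).

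**Figure D4:**
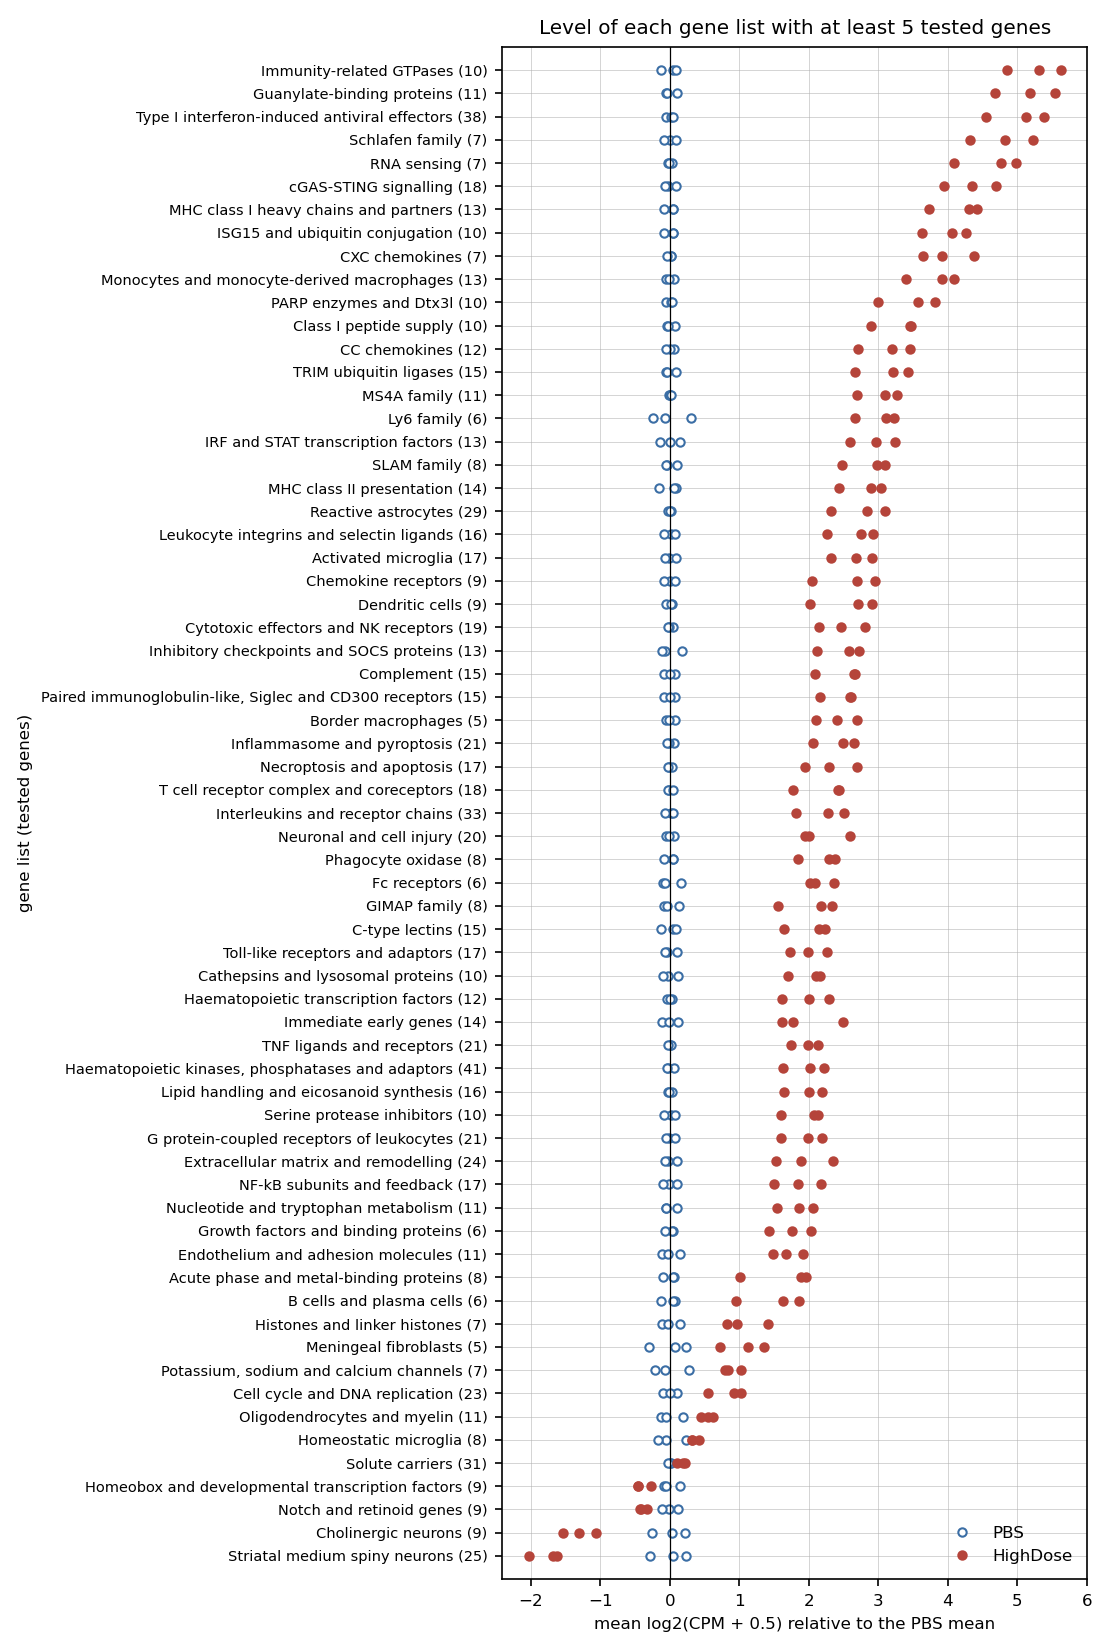
Mean level of each gene list in each library (x axis), as log2 of CPM plus 0.5 relative to the PBS mean of the same genes. Open circles are PBS libraries and filled circles HighDose libraries, 3 each, and lists are ordered by their HighDose mean. Striatal and cholinergic genes lie below 0, and the list of homeostatic microglia, with 5 genes higher and 3 lower, lies close to PBS.

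Families of leukocyte surface receptors were higher throughout. C-type lectins were higher in 15 of 15 (median 3.53), with the activation marker Cd69 at 1 count in all PBS libraries together and 587 in HighDose (ratio 533, 95% counting interval 95.3 to 21085), Clec4e, a receptor of damaged cells, at 5.62 ± 0.72 and Cd72 at 4.53 ± 0.38. MS4A genes were higher in 11 of 11 (median 4.605), among them Ms4a4b (7.47 ± 0.55) of T cells and Ms4a6c (5.74 ± 0.32) of macrophages. The paired immunoglobulin-like, Siglec and CD300 receptors were higher in 15 of 15 (median 4.81), led by Lilr4b (1 count in all PBS libraries together and 263 in HighDose) and Sirpb1c (6.84 ± 0.66), with counts not whole for 8. SLAM receptors, through which lymphocytes and macrophages recognise each other, were higher in 8 of 8 (median 3.86), led by Slamf7 (0.0545, 0.145 and 0 CPM in PBS and 13.4, 16.5 and 20.1 CPM in HighDose; 7.86 ± 0.48). The Ly6 family was higher in 6 of 6 (median 2.88).

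G protein-coupled receptors of leukocytes were higher in 19 of 21 (median 2.81). Gpr171 had 1 count in all PBS libraries together and 372 in HighDose (ratio 338, 95% counting interval 60.2 to 13375), and the exceptions were P2ry12 and Gpr34, both receptors of resting microglia. Leukocyte integrins and selectin ligands were higher in 16 of 16 (median 3.47). In that list Ptprc, which encodes the common leukocyte antigen CD45, had 2.998, 3.39 and 1.98 CPM in PBS and 34.04, 50.7 and 67.6 CPM in HighDose (4.19 ± 0.28). Haematopoietic kinases, phosphatases and adaptors were higher in 40 of 41 (median 2.02, 0.31 with TMM), among them the kinase Fgr (6.32 ± 0.52), and Tbc1d10c was not called (0.85 ± 0.47) except with limma-voom (0.83, adjusted p = 0.0252). Haematopoietic transcription factors were higher in 12 of 12 (median 2.14). Runx3 of cytotoxic lymphocytes rose by 6.75 ± 0.58 and Ikzf3 by 5.24 ± 0.61, while Spi1, the master factor of myeloid cells, had 3.76, 3.196 and 3.04 CPM in PBS and 12.1, 14.5 and 16.8 CPM in HighDose (2.12 ± 0.27).

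Homeostatic genes of microglia went both ways, and activation genes were higher. Of 8 tested genes on the homeostatic list of 20, 5 were higher and 3 lower (median 0.95, but -0.76 with TMM, where 7 were called lower and 0 higher). P2ry12, the receptor by which resting microglia sense ADP, had 39.6, 41.5 and 33.6 CPM in PBS and 22.2, 19.9 and 16.3 CPM in HighDose (-0.97 ± 0.22, adjusted p = 9.04e-05), and Gpr34 had 11.01, 14.2 and 11.2 CPM in PBS and 7.26, 4.74 and 5.33 CPM in HighDose (-1.07 ± 0.25). Tmem119, another marker of the resting state, moved the opposite way with 18.4, 25.9 and 21.1 CPM in PBS and 41.5, 49.6 and 44.2 CPM in HighDose, a change of 1.05 ± 0.22 that turned below 0 under the within-table scalings. The largest change on the homeostatic list was in Gpr84, a receptor of medium-chain fatty acids, with 1.04, 1.21 and 0.323 CPM in PBS and 4.16, 5.21 and 6.02 CPM in HighDose (2.59 ± 0.42), and Olfml3, a secreted glycoprotein, was also higher (1.32 ± 0.22, below 0 under the within-table scalings). Activation genes were higher in 17 of 17 (median 3.72). Cd52 had 0.818, 0.6295 and 0.599 CPM in PBS and 17.5, 24.97 and 27.9 CPM in HighDose (5.1 ± 0.35), Lgals3, a lectin of phagocytes, had 0.709, 1.79 and 0.922 CPM in PBS and 17.9, 23.1 and 27.3 CPM in HighDose (4.301 ± 0.31), and Aif1, which encodes IBA1, had 2.56, 3.49 and 2.31 CPM in PBS and 11.6, 12.6 and 16.1 CPM in HighDose (2.27 ± 0.28). Cd68, a lysosomal protein of phagocytes, changed least in this group of named genes (1.06 ± 0.24, below 0 under the within-table scalings). The markers of monocytes given above rose in the same libraries, and macrophages that derive from them share most of the activation genes, so their part in these values was not tested.

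Reactive astrocyte genes were higher in 29 of 29 (median 2.56, 0.82 with TMM). Gfap, the intermediate filament of astrocytes, had 113, 120.1 and 146 CPM in PBS and 374, 453 and 534 CPM in HighDose (1.85 ± 0.23), and Vim, another filament, had 31.2, 28.7 and 31.8 CPM in PBS and 69.6, 89.2 and 99.4 CPM in HighDose (1.49 ± 0.21, below 0 under the within-table scalings). Tgm1, a transglutaminase, had 3 counts in all PBS libraries together and 948 in HighDose (ratio 287, 95% counting interval 97.9 to 1394), and Timp1, an inhibitor of metalloproteases, had 0.164, 0.242 and 0.0922 CPM in PBS and 2.36, 4.401 and 5.24 CPM in HighDose (4.55 ± 0.52). The highest member, Cxcl10, is not confined to astrocytes. Of 5 defining markers of astrocytes Gfap was the only 1 analysed, so astrocyte expression at rest as a whole was not measured. Some genes that astrocytes express at rest went the other way, chosen here after their values were seen and given with no test of the group. Mfge8, an opsonin secreted by astrocytes, fell from 129.6, 144 and 135 CPM in PBS to 76.96, 58.3 and 32.6 CPM in HighDose (-1.29 ± 0.23). The neurotensin receptor Ntsr2 fell from 57.2, 71.1 and 68.9 CPM in PBS to 41.4, 30.6 and 20.1 CPM in HighDose (-1.098 ± 0.23) and Grin2c, an NMDA receptor subunit that astrocytes express, from 38.1, 49.5 and 40.2 CPM in PBS to 22.3, 22.2 and 11.6 CPM in HighDose (-1.19 ± 0.24). Bcan, a proteoglycan of perineuronal matrix, had 162, 198 and 172 CPM in PBS and 103, 103 and 59.4 CPM in HighDose (-1.01 ± 0.22), and Rlbp1, a retinaldehyde-binding protein, went from 17.2 to 6.78 CPM (-1.34 ± 0.24).

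Oligodendrocyte genes also split. Of 11 tested, from a list of 30, 6 were lower and 5 higher (median -1.03). Besides Mal, the lower ones included Mog (-1.06 ± 0.22), on the outer face of myelin, the myelin lipid enzymes Ugt8a (-1.03 ± 0.21) and Fa2h (-1.12 ± 0.22), and Tmem125 (-1.24 ± 0.26). All 6 lay between -1.24 and -1.03, close to each other and just past the 2-fold by which genes entered the table. The higher ones were C4b, Serpina3n, Apod, the protease Klk6 (2.201 ± 0.27) and Il33, an alarm cytokine (below 0 under the within-table scalings). The precursor genes Gpr17 (73.2, 88.9 and 83.7 CPM in PBS and 48, 37.5 and 33.6 CPM in HighDose; -1.05 ± 0.21) and Neu4 (-1.24 ± 0.27) were both lower. Mbp, a main myelin gene, was not analysed here.

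At the vessel wall, adhesion molecules that capture leukocytes were higher. Selp, which encodes P-selectin, had 0, 0.145 and 0 CPM in PBS and 4.46, 4.88 and 7.89 CPM in HighDose (6.702 ± 0.61), and Sele, which encodes E-selectin, had 0.164, 0.0968 and 0.0461 CPM in PBS and 1.36, 1.44 and 2.69 CPM in HighDose (4.12 ± 0.66). Icam1 had 3.54, 3.63 and 3.596 CPM in PBS and 26.3, 30.3 and 45.9 CPM in HighDose (3.25 ± 0.27), and Vcam1 had 31.1, 30.4 and 32.8 CPM in PBS and 56, 83.5 and 91.6 CPM in HighDose (1.29 ± 0.22, below 0 under the within-table scalings). In this list 10 of 11 were higher (median 1.802), and with TMM 4 were called higher and 4 lower. Slco1a4, a transporter of the blood-brain barrier, fell from 51.2, 58.4 and 49.1 CPM in PBS to 29.1, 31.3 and 17.5 CPM in HighDose (-1.03 ± 0.22). Of the endothelial markers Vwf was analysed, with a mean that went from 22.1 to 46.9 CPM (1.09 ± 0.22, below 0 under the within-table scalings). Markers of mural cells were not analysed here.

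Matrix and remodelling genes were higher in 24 of 24 tested, of 60 on that list (median 2.14, 0.41 with TMM). The metalloproteases led. Mmp13 was at 0 in PBS with 1.75, 1.53 and 2.17 CPM in HighDose (at least 36.9-fold), Mmp3 had 1 count in all PBS libraries together and 215 in HighDose (ratio 195, 95% counting interval 34.7 to 7745), and Mmp25 had 0.218, 0.291 and 0.231 CPM in PBS and 4.68, 5.64 and 7.32 CPM in HighDose (4.54 ± 0.45). Tgfbi, a matrix protein made by macrophages, had 2.62, 2.61 and 4.29 CPM in PBS and 43.2, 65.4 and 72.2 CPM in HighDose (4.24 ± 0.27). Of 5 tested genes on the fibroblast list of 18, 4 were higher, and the median of 1.58 was -0.17 with TMM. Fmod, fibromodulin, was called lower although its libraries overlapped (13.6, 10.4 and 14.8 CPM in PBS and 12.6, 7.13 and 4.64 CPM in HighDose, -0.67 ± 0.27). The call for Fmod was lost without PBS replicate 3 (edgeR adjusted p = 0.0525), HighDose replicate 2 (0.0503) or HighDose replicate 3 (0.124). Dcn, decorin, had 9.38, 8.28 and 10.1 CPM in PBS and 24.9, 39.6 and 59.4 CPM in HighDose (2.16 ± 0.25). Of the ependyma and choroid list 2 genes were tested (median 0.83, -0.91 with TMM). Kcnj13, a potassium channel of choroid epithelium, was not called and stood apart in 1 PBS library (0.382, 0.387 and 4.37 CPM in PBS and 1.31, 1.77 and 2.903 CPM in HighDose). Without that library, PBS replicate 3, it was called higher (2.36, edgeR adjusted p = 0.000167), and its change fell below 0 without PBS replicate 1, PBS replicate 2 or HighDose replicate 3. The water channel Aqp1 was called higher (1.46 ± 0.36, below 0 under the within-table scalings).

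All 25 tested genes of striatal medium spiny neurons were lower, with a median of -1.95, against 10.7% called lower over all tested genes. They are 25 of the 36 genes on that list, and every gene of the table was chosen for a difference between some pair of the groups. The dopamine receptors Drd2 (36.3, 43.7 and 29.8 CPM in PBS and 8.31, 5.64 and 4.46 CPM in HighDose; -2.57 ± 0.29, adjusted p = 1.37e-10) and Drd1 (46.1, 49.2 and 36.98 CPM in PBS and 15.4, 18.1 and 11.8 CPM in HighDose; -1.54 ± 0.26) mark the indirect and the direct pathway. Both fell, as did Penk, the opioid precursor of the indirect pathway (177, 204 and 139 CPM in PBS and 48.3, 53.5 and 33.02 CPM in HighDose; -1.95 ± 0.26), and Tac1, a neuropeptide of the direct pathway (30.7, 34.2 and 24.4 CPM in PBS and 14.96, 13.8 and 9.23 CPM in HighDose; -1.23 ± 0.25). Pde10a (319, 329 and 225 CPM in PBS and 97.9, 109 and 84.8 CPM in HighDose; -1.58 ± 0.25) and Adcy5 (299, 348 and 266 CPM in PBS and 137, 121 and 106 CPM in HighDose; -1.33 ± 0.22), which set the level of cyclic AMP, were among the largest losses in reads. The lowest were the homeobox factor Six3 (3.76, 4.31 and 4.06 CPM in PBS and 0.481, 0.287 and 0.303 CPM in HighDose; -3.48 ± 0.50) and the synapse protein Syndig1l (41.4, 48.8 and 33.2 CPM in PBS and 6.61, 6.41 and 3.16 CPM in HighDose; -2.93 ± 0.31). The mean level of the list was 0.04, 0.24 and -0.28 in PBS and -1.62, -1.68 and -2.03 in HighDose, as log2 of CPM plus 0.5 relative to PBS. Different shares of striatum in the pieces and a change within striatal neurons cannot be told apart here.

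Cholinergic genes were lower in 8 of 9 tested, of 18 on that list (median -2.18). Chat, which makes acetylcholine, had 3.38, 4.12 and 2.31 CPM in PBS and 1.14, 0.191 and 0.477 CPM in HighDose (-2.41 ± 0.47), and the choline transporter Slc5a7 had 6.21, 6.005 and 4.43 CPM in PBS and 1.31, 1.15 and 0.563 CPM in HighDose (-2.46 ± 0.43). Slc10a4, a vesicle protein with the lowest log2 change among genes above 1 CPM in PBS, fell from 2.83, 3.49 and 1.89 CPM in PBS to 0.263, 0.144 and 0.13 CPM in HighDose (-3.89 ± 0.57). Pan-neuronal genes such as Snap25 and Rbfox3 were not analysed here, so whether neurons in general changed was not measured.

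Stress and damage genes were higher in the same tissue. Immediate early genes, which neurons and glia switch on within minutes of a stimulus, were higher in 13 of 14 (median 1.88, 0.13 with TMM). Fosl1 had 1 count in all PBS libraries together and 695 in HighDose (ratio 631, 95% counting interval 113 to 24958), and Atf3, a factor of injured neurons, had 0.927, 0.581 and 0.738 CPM in PBS and 26.9, 27.7 and 56.4 CPM in HighDose (5.62 ± 0.33). Npas4, which responds to neuronal activity itself, was not called (14.8, 21.6 and 26.2 CPM in PBS and 16.9, 16.98 and 13.1 CPM in HighDose; -0.42 ± 0.23, adjusted p = 0.0743). Npas4 was called lower without PBS replicate 1 or HighDose replicate 1 (edgeR adjusted p = 0.0243 and 0.0414). In the injury list 18 of 20 were higher (median 1.98). Gdf15, a stress hormone, had 1 count in all PBS libraries together and 289 in HighDose (ratio 262, 95% counting interval 46.7 to 10399), Cdkn1a, the p53 target p21, had 14.99, 20.8 and 17.2 CPM in PBS and 151, 181 and 278 CPM in HighDose (3.52 ± 0.25), and Trib3 of the integrated stress response had 0.436, 0.339 and 0.507 CPM in PBS and 4.46, 5.88 and 7.93 CPM in HighDose (3.81 ± 0.41). For Atf3, Cdkn1a and Trib3 HighDose replicate 3 stood above replicates 1 and 2.

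Proliferation genes were only mildly higher. Of 23 tested, from a list of 74, 15 were called higher (median 0.996, but -0.71 with TMM, where 10 were called lower). Top2a had 3.65, 2.52 and 5.03 CPM in PBS and 6.61, 9.18 and 10.3 CPM in HighDose (1.22 ± 0.30, below 0 under the within-table scalings), and Mki67 was not called (5.78, 3.002 and 4.33 CPM in PBS and 5.51, 5.41 and 8.93 CPM in HighDose; 0.60 ± 0.30, adjusted p = 0.0566). Mki67 passed without PBS replicate 1, LowDose replicate 1, HighDose replicate 1 or HighDose replicate 2 (edgeR adjusted p between 0.0209 and 0.0442). Mcm6, a replication helicase subunit, stood out at 7.03, 7.12 and 7.15 CPM in PBS and 31.1, 46.6 and 50.6 CPM in HighDose (2.59 ± 0.24). Of 7 histone genes 6 were higher (median 2.15), with counts not whole for 6.

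Genes of transport and metabolism went both ways. Among 31 solute carriers 16 were higher and 15 lower (median 0.90, -0.81 with TMM). Slc28a2, a nucleoside transporter, had 0.218, 0.242 and 0.0461 CPM in PBS and 5.12, 3.44 and 6.54 CPM in HighDose (4.88 ± 0.54), Slc15a3, a lysosomal peptide transporter, had 1.31, 1.69 and 2.44 CPM in PBS and 18.9, 18.7 and 22.7 CPM in HighDose (3.46 ± 0.29), and Slc40a1, the iron exporter ferroportin, fell from 11.4, 13.03 and 12.9 CPM in PBS to 4.94, 5.02 and 4.51 CPM in HighDose (-1.36 ± 0.24). The zinc transporter Slc39a12 fell from 58.6, 70.7 and 62.1 CPM in PBS to 33.3, 30.04 and 21.3 CPM in HighDose (-1.18 ± 0.22). Of 7 channel genes 5 were higher (median 1.75, 0.05 with TMM) and Cacng4 was lower (-1.199 ± 0.22). Lipid and eicosanoid genes were higher in 14 of 16 (median 2.11), led by Apol9a (6.42 ± 0.43) and by Ch25h, which makes the antiviral oxysterol 25-hydroxycholesterol (0.382, 0.194 and 0.277 CPM in PBS and 6.17, 6.65 and 8.54 CPM in HighDose; 4.63 ± 0.42), and Ltc4s was lower (-1.303 ± 0.44). Nucleotide and tryptophan enzymes were higher in 10 of 11 (median 2.46). Cmpk2, a mitochondrial nucleotide kinase next to Rsad2, had 25.3, 26.7 and 27.8 CPM in PBS and 198, 304 and 367 CPM in HighDose (3.44 ± 0.24), and Samhd1, which empties the pool of DNA precursors, had 13.9, 17.2 and 13.5 CPM in PBS and 118, 156 and 191 CPM in HighDose (3.38 ± 0.24).

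Developmental regulators went both ways, with more of the listed ones lower than higher. Of 9 tested homeobox and related genes 6 were lower (median -1.12), and the 3 that were higher were Tbx21 and Pax5 of lymphocytes and Foxf1 (below 0 under the within-table scalings). Hes5, a target of Notch signalling, fell from 6.05, 6.73 and 5.99 CPM in PBS to 1.84, 1.77 and 0.7799 CPM in HighDose (-2.097 ± 0.33). Of 9 Notch and retinoid genes 6 were lower (median -1.14), including the retinoid receptor Rxrg (27.9, 26.5 and 16.05 CPM in PBS and 6.56, 4.98 and 4.07 CPM in HighDose; -2.17 ± 0.30), which is also on the striatal list, and Aldh1a2, which makes retinoic acid, was higher (6.32, 4.46 and 6.22 CPM in PBS and 15.2, 23.97 and 32.1 CPM in HighDose; 2.07 ± 0.26). Growth factors were higher in 6 of 6 (median 2.703), among them Lif (3.09 ± 0.45) and Clcf1 (2.73 ± 0.48), cytokines of the interleukin 6 family that act on astrocytes.

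The authors' deposited table also sorts genes into transcription factor families. All 18 tested bZIP factors (median 1.86, 0.13 with TMM) and all 7 of the ETS family (1.96, 0.23 with TMM) were higher, with medians at the level of the whole table. All 7 of the IRF family (2.597, 0.91 with TMM) and all 4 of the STAT family (2.66, 0.94 with TMM) lay above it, and all 4 of the NF-kB (RHD) family were higher with a median of 1.53 that was -0.19 with TMM. Of 30 C2H2 zinc finger genes 27 were higher and 3 lower, with a median of 1.07, below that of all tested genes (-0.65 with TMM). Of 8 bHLH factors 5 were lower (median -1.07), the lowest being Hes5. Of 8 homeobox factors 3 were higher, 4 lower and 1 not called (median -0.16, -1.85 with TMM).

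The function lists cover 782 tested genes, and 801 tested genes are on none of them. Of these 666 were higher, 105 were lower and 30 were not called, with a median of 1.41 (-0.28 with TMM). The genes named from here on in this paragraph were chosen after their values were seen. Znfx1, a helicase that senses double-stranded RNA at mitochondria, had 101, 108 and 108 CPM in PBS and 342, 473 and 515 CPM in HighDose (2.07 ± 0.22), the largest gain outside the lists. Lgals3bp, a secreted glycoprotein, had 14.2, 21.8 and 21.9 CPM in PBS and 253, 380.1 and 379 CPM in HighDose (4.12 ± 0.26), Mpeg1, the pore protein of macrophages, 39.8, 44.2 and 35.5 CPM in PBS and 176, 244 and 259.6 CPM in HighDose (2.51 ± 0.22), and Grn, which encodes progranulin, 47.6, 54.2 and 53.5 CPM in PBS and 172, 227 and 232 CPM in HighDose (2.02 ± 0.22). Fgl2, a fibrinogen-like immune regulator, rose from 1.199, 1.501 and 1.24 CPM in PBS to 51.5, 69.03 and 88.7 CPM in HighDose (5.72 ± 0.29), and Epsti1, an interferon-inducible gene, from 0.382, 0.387 and 0.461 CPM in PBS to 17.3, 27.7 and 31.3 CPM in HighDose (5.93 ± 0.36). Sct, the hormone secretin, had 0 counts in PBS and 2.1, 2.54 and 2.25 CPM in HighDose, at least 46.3-fold higher. Daxx, a chaperone of histone H3.3 that silences viral DNA, had 18.8, 21.6 and 22.04 CPM in PBS and 91.3, 102 and 151 CPM in HighDose (2.46 ± 0.23), and Hap1, the huntingtin-associated protein of neurons, 45.2, 41.02 and 40.7 CPM in PBS and 107, 149 and 161 CPM in HighDose (1.71 ± 0.22). Among the lower genes were the selenium-free glutathione peroxidase Gpx6 (1.25, 1.501 and 0.553 CPM in PBS and 0.0438, 0.0478 and 0.13 CPM in HighDose; -3.78 ± 0.72), the early B cell factor relative Ebf2 (2.24, 0.9201 and 0.8299 CPM in PBS and 0.175, 0.239 and 0.13 CPM in HighDose; -2.83 ± 0.60) and Rasgrp2, an activator of Rap1 in striatal neurons and platelets (33.2, 36.2 and 26.97 CPM in PBS and 13.2, 11.5 and 8.58 CPM in HighDose; -1.53 ± 0.24).

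The HighDose libraries were not at the same level. No 2 libraries of a group agreed within sampling noise, since the chi-square statistic per gene, which is near 1 for sampling noise alone and grows with the counts, was at least 4.52. Of 1304 genes called higher with a mean of at least 1 CPM in HighDose, replicate 1 was the lowest of the 3 in 1139 and replicate 3 the highest in 1036. The median ratio of replicate 3 to replicate 1 was 1.59, it exceeded 2 in 201 genes, and it was below 1 in 60. Of 164 genes called lower with a mean of at least 1 CPM in PBS, replicate 3 was the lowest in 117. The gap between libraries was not the same for all lists. On the scale of log2 of CPM plus 0.5, replicates 2 and 3 were equal for the class I peptide supply (2.899, 3.46 and 3.46 above PBS) and nearly so for the class I heavy chains (3.72, 4.299 and 4.42). For immediate early genes (1.62, 1.77 and 2.49) and injury genes (1.94, 2.001 and 2.59), replicates 1 and 2 were close and replicate 3 stood above both. These differences between single libraries have no test.

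**Figure D5:**
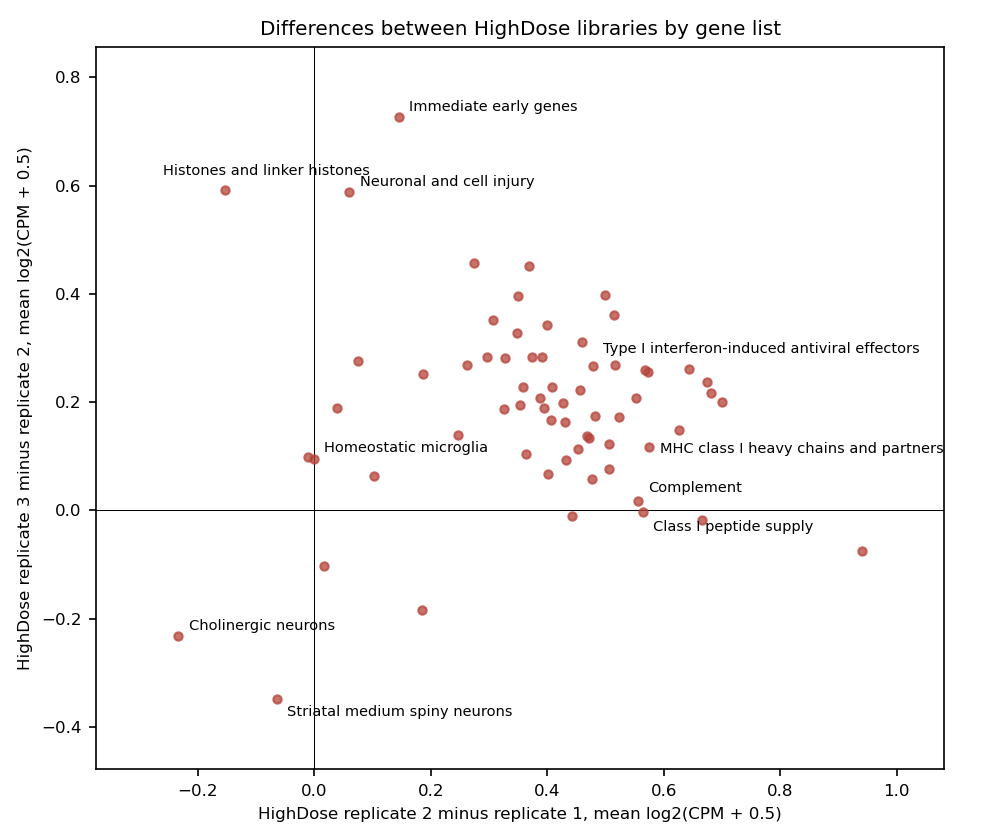
For each gene list, the difference between HighDose replicates 2 and 1 (x axis) and between replicates 3 and 2 (y axis) in mean log2 of CPM plus 0.5. The class I peptide supply and complement lists lie right of 0 on the x axis and close to 0 on the y axis, and immediate early and injury genes lie at the top, close to 0 on the x axis.

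The remaining 129 listed genes differed less than 2-fold in mean FPKM between these groups and are in the table for another pair. Of these 128 were tested, 78 were called higher, 4 lower and 46 were not called. Of the 127 listed genes with too few counts for the test, 114 had every HighDose library above every PBS library and 3 had every one below.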

How the data were processed

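RNA-seq libraries of PBS, LowDose and HighDose tissue were given as 1 table of 1710 genes. It holds the authors' estimated counts per gene and library, of which 7.66% to 13.98% per library are not whole, and the authors' FPKM, per the file headers. Per the submitters' processing notes the build was mm10, and DESeq2 and edgeR are named with no role. No source used here names the aligner or counter, or says how genes were chosen for the table. From the values, each listed gene differs at least 2-fold in mean FPKM between some pair of the 3 groups.

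Library totals were recovered as the median, over genes with a single transcript, of the count divided by FPKM and transcript length (GENCODE M21). Counts were rounded to whole numbers, filtered with filterByExpr at a minimum count of 10, and fitted in edgeR 4.0.16 (R 4.3.3) with the quasi-likelihood test, all 9 libraries in 1 model of 3 groups, the recovered totals as library sizes, and Benjamini-Hochberg adjustment over the tested genes. The SE is the log2 change divided by the root of the F statistic. CPM are per 1000000 of the recovered total, with no floor except where 3 counts are named, and intervals and floors cover counting error only. Alternatives used TMM, DESeq2 1.42.0, limma 3.58.1, other filters, 2 groups, a replicate block and fewer libraries. Counts were also simulated for this comparison, with 1241 tested genes. Of those with a log2 change of -1, 1, -2 and 2, 54%, 58%, 93.9% and 100% were called. Of 1042 unchanged ones, 0.768% were called. The share of false calls among genes chosen for a 2-fold difference, as in the deposited table, was not tested.

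Symbols follow GENCODE M21 by gene ID (1704 of 1710 matched), and RefSeq promoters matched 1318 listed genes by symbol. Function lists (72) and markers were written with earlier results of these data known, as was the choice of comparison, and lists overlap. Genes were named by a rule: the 12 largest gains and 12 largest losses in mean CPM, the 12 highest and 12 lowest log2 changes with at least 1 CPM and no overlap, and in each list the 3 largest changes, the members against the majority and a set of fixed markers. Of 263 genes in the text, 86 are outside it and were chosen after their values were seen. Some genes that the rule names are not reported here. The LowDose libraries entered the model only.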

Additional observations from a re-analysis of the deposited data

How the results depend on the processing

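The choice of scaling was the setting that moved the counts most. With TMM factors, DESeq2 size factors and the sum of the listed counts, genes called higher went from 1366 to 600, 605 and 607, and genes called lower from 169 to 464, 455 and 454. By construction these scalings take the listed genes as balanced, and 21 of 257 named genes changed sign under them, given here in the same order: Aim2 (-0.51, -0.48 and -0.48), Aqp1 (-0.27, -0.23 and -0.23), C1qa (-0.17, -0.14 and -0.14), Cd68 (-0.64, -0.61 and -0.60), Cd79b (-0.75, -0.71 and -0.72), Foxf1 (-0.34, -0.31 and -0.31), Gimap1 (-0.58, -0.56 and -0.55), Ifnar2 (-0.71, -0.69 and -0.68), Il33 (-0.68, -0.65 and -0.65), Kcnj13 (-1.56, -1.51 and -1.52), Ly6c1 (-0.58, -0.56 and -0.55), Ly6e (-0.20, -0.17 and -0.17), Mki67 (-1.12, -1.08 and -1.09), Olfml3 (-0.37, -0.35 and -0.34), Tbc1d10c (-0.85, -0.82 and -0.82), Tmem119 (-0.63, -0.60 and -0.60), Tnfrsf13b (-1.13, -1.10 and -1.10), Top2a (-0.50, -0.47 and -0.47), Vcam1 (-0.43, -0.40 and -0.40), Vim (-0.22, -0.19 and -0.19) and Vwf (-0.63, -0.60 and -0.59). The medians of 6 of the 70 lists with a tested gene changed sign as well: cell cycle genes (-0.71, -0.68 and -0.68), ependyma and choroid plexus (-0.91, -0.87 and -0.88), homeostatic microglia (-0.76, -0.73 and -0.73), interferons and receptor chains, where Ifnar2 alone was tested (-0.71, -0.69 and -0.68), meningeal fibroblasts (-0.17, -0.14 and -0.15) and solute carriers (-0.81, -0.78 and -0.78).

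The other settings kept both counts within 1.5 times. Genes called higher and lower were 1482 and 173 with no filter on low counts, 1226 and 157 with the stricter filter, 1359 and 166 with DESeq2, 1382 and 169 with limma-voom, 1357 and 169 with the LowDose libraries left out of the model, and 1269 and 158 with a 2-fold threshold. Leaving out each library in turn gave 1339 to 1429 higher and 157 to 170 lower, and a difference in the listed share of 2.98 to 4.05 percentage points around 3.48. Library totals taken as a mean gave 3.48 as well. Under the stricter filter the median of the solute carriers was -0.038, with fewer genes tested. The change of Kcnj13 ranged from -0.27 to 2.36 when 1 library was left out. Of the 257 named genes, 250 kept call and direction under every setting other than the 3 scalings.

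The labels number the replicates alike in all groups, but deviations from the group means of same-numbered libraries correlated at 0.07, -0.01 and 0.15, so the numbers were not taken to pair the samples. With the replicate number as a block, 1368 genes were called higher and 169 lower, and Mki67 alone among the named genes changed its call (0.58, edgeR adjusted p = 0.0430). Depth limits the low end: 3 counts are 0.130 to 0.164 CPM, and 127 listed genes had too few counts to be tested.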
